A study of Mus musculus with 32 samples.

Results

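The genes described here are 7 complement genes of the mouse macrophage. C1qa, C1qb and C1qc encode the chains of C1q, C3 and Cfb encode the central component and the factor B protease of the alternative pathway, Cfp encodes properdin, and C3ar1 encodes the receptor for the C3a fragment. They were picked out by symbol from the 56953 genes of the count table, and all 7 passed the filter on low counts that left 14427 genes for testing. Messenger RNA was sequenced from macrophages differentiated from bone marrow (femur and tibia) of mice aged 8 to 12 weeks, with L929 supernatant as the source of M-CSF. Each of 2 genotype labels, Acod1 WT and Acod1 KO, was combined with no treatment, 100 nM dexamethasone, 100 ng LPS (no volume given) or both agents for 24 h, with 4 libraries per group, 8 groups and 32 libraries. Acod1, also called Irg1, encodes the enzyme that makes itaconate; dexamethasone is a synthetic glucocorticoid and LPS is bacterial lipopolysaccharide. The labels give the strain background C57BL/6J for all groups, name both C57BL/6J mice of one supplier and Irg1+/+ mice of another as sources of wild-type marrow without saying which was used, and name Irg1-/- mice for the knockout. Nothing ties a replicate to a mouse of its own, so p-values speak to the spread among these libraries, which may be technical.

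Complement is a cascade of plasma proteins that marks particles for uptake and recruits leukocytes. C1q, assembled from A, B and C chains, binds immune complexes and dying cells and starts the classical pathway; unlike most complement proteins, which the liver supplies, it comes largely from macrophages and dendritic cells. In the alternative pathway, factor B binds C3b to form the C3 convertase, properdin stabilises that enzyme, and the C3a released acts on the C3a receptor of myeloid cells.

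The 3 C1q genes lie side by side on the minus strand of chromosome 4, within 18675 bases (136607440 to 136626114 in the coordinates of the count table's GENCODE vM32 annotation). C1qb (ENSMUSG00000036905) runs from 136607440 to 136613498, C1qc (ENSMUSG00000036896) from 136617115 to 136620376 and C1qa (ENSMUSG00000036887) from 136623228 to 136626114, each with 3 exon blocks. C3 (ENSMUSG00000024164) spans 57510970 to 57535136 on chromosome 17 with 42 exon blocks, and Cfb (ENSMUSG00000090231) spans 35075350 to 35081494 on the same chromosome with 17. Cfp (ENSMUSG00000001128) lies on chromosome X from 20791693 to 20797794, and C3ar1 (ENSMUSG00000040552) on chromosome 6 from 122824097 to 122833120. Of the 2825 exon bases of Cfb, 2246 (79.5%) are shared with the readthrough gene Gm20547, which had 1 count over the 32 libraries. The header lists no option to count a read that overlaps several genes, so a read pair with both reads within the shared bases counts for neither gene. Only 579 bases are unshared, and Cfb levels leave such pairs out and understate the gene.

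Promoter sequences are shown for C1qb and C1qc, neighbours whose levels moved together, and for C3, which moved against them. RefSeq (GRCm38.p6) gave windows for 5 of the 7 genes, C1qb, C1qc, C3, Cfp and C3ar1, and not for C1qa and Cfb. The 250 bases before the transcription start were searched on both strands for 6 motifs: kappaB, the IRF core AANNGAAA, the glucocorticoid receptor core AGAACA, C/EBP TTGCNNAA, PU.1 GAGGAA and the MAF core TGCTGA. The windows shown are chr4:136886201-136886450, chr4:136892915-136893164 and chr17:57228137-57228386, all on the minus strand of GRCm38.p6, a build other than that of the gene coordinates above. They read 5′ to 3′ and end at the base before the start, with matches in capitals.
C1qb: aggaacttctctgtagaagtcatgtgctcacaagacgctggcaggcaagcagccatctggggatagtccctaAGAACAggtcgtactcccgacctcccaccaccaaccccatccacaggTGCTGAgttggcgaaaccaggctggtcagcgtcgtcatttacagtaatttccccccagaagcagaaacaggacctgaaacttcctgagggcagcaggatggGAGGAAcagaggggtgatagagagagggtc
C1qc: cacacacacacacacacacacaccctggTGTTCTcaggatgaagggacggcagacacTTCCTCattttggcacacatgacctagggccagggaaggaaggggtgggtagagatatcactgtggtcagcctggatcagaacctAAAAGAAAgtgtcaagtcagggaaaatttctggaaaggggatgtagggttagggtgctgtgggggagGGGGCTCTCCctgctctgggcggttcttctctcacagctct
C3: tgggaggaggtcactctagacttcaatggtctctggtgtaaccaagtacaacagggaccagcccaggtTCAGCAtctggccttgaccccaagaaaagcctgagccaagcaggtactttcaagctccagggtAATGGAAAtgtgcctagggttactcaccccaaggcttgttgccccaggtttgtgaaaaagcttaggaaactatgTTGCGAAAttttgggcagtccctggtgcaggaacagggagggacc
C1qb held a glucocorticoid receptor core, a MAF core and a PU.1 match, in that order. C1qc held a glucocorticoid receptor core, a PU.1 match, an IRF core and a kappaB match, and C3 held a MAF core, an IRF core and a C/EBP match. C3ar1 had an IRF core and a MAF core, Cfp had no match of the 6, and no 2 matches overlapped. Over 32851 windows of the same length, 7.25% held the kappaB motif, 21.3% the IRF core, 16.1% the glucocorticoid receptor core, 9.56% the C/EBP motif, 23.2% the PU.1 motif and 16.1% the MAF core. A match describes these letters and not binding, and the absence of one says nothing of the factor.

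Levels are CPM, each library's counts over its TMM-adjusted total. Effects are on the log2 scale, ± SE, from the quasi-likelihood F test of edgeR. The SE was taken as the absolute effect over the square root of F. A gene is called where its p, adjusted by Benjamini-Hochberg over the 14427 genes, is under 0.05. Libraries held 17559079 to 25049200 counts. Acod1 was detected in both labels, at 6483 ± 249 CPM (SD, n = 4) in WT and 4995 ± 133 CPM in the KO-labelled libraries with LPS, at 2738 ± 34.8 and 3933 ± 195 CPM with both agents, at 9.89 ± 1.26 and 5.82 ± 0.747 CPM untreated, and at 0.868 ± 0.310 and 0.490 ± 0.151 CPM with dexamethasone. Gene-level counts pool all exons and the labels do not give the deleted part, so these counts do not check the KO label. All WT libraries came from sequencing lane 3, and all KO-labelled libraries with LPS, alone or with dexamethasone, came from lane 2 with 1 of the KO-labelled dexamethasone libraries. Effects of LPS within the KO label, alone or added to dexamethasone, are thus tied to lane as well. With a lane term, which rests on that 1 dexamethasone library, the calls over all genes for LPS against control there went from 10977 to 8380. Replicate 3 of WT with LPS stood apart from the other 3 of its group, with a chi-square per degree of freedom of 16.1 to 16.7 over genes against at most 5.57 for all other pairs within groups, and was the highest of the 4 for C1qa, C1qb, C1qc and Cfp, so results that use it are also given without it. Macrophage markers summed to 17015 to 30884 CPM over the libraries, against 0.170 to 107 CPM for B cells, 0.0446 to 28.9 for fibroblasts, 0.202 to 25.8 for mast cells, 0.708 to 17.3 for dendritic cells, 0 to 13.8 for neutrophils, 0.0501 to 0.852 for erythroid cells and 0 to 0.481 for T and NK cells.

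The 3 C1q genes were high in resting macrophages, higher with dexamethasone and far lower with LPS, and dexamethasone given with LPS lifted them only in part. C1qa, the A chain, stood at 251, 249, 254 and 247 CPM in the untreated WT libraries and at 13.1, 12.7, 15.5 and 10.7 CPM with LPS. With dexamethasone alone it read 526, 502, 520.3 and 503 CPM, and with both agents 58.7, 61.4, 74.8 and 62.6 CPM. The 4 sets of WT libraries did not overlap at any point, and those with both agents stayed below every untreated library. The share of all genes whose libraries lie apart was not counted, here or for the ranges compared below. LPS called 75.7% of all genes in WT. LPS lowered C1qa with a log2 fold change of -4.26 ± 0.066 (edgeR adjusted p = 2.3e-45), a 19.2-fold drop, and dexamethasone alone raised it by 1.03 ± 0.048 (edgeR adjusted p = 2.6e-24). Added to LPS, dexamethasone raised it 4.93-fold, 2.30 ± 0.071 (edgeR adjusted p = 4.0e-32). In these bulk libraries fewer cells of a type and less RNA per cell cannot be told apart.

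C1qb and C1qc followed the same course. C1qb, the B chain, was at 1393, 1394, 1395 and 1411 CPM in untreated WT libraries, 2499, 2391, 2458 and 2419 CPM with dexamethasone, 148, 131, 153 and 128 CPM with LPS and 346, 343, 357 and 333 CPM with both. C1qc, the C chain, was at 844, 845, 871 and 879, then 1403, 1310.5, 1377 and 1355, 52.4, 50.9, 59.7 and 46.4 and 135, 130.3, 146 and 132 CPM in the same order of groups. As for C1qa, no WT library of one treatment reached the range of another. LPS changed C1qb by -3.32 ± 0.043 and C1qc by -4.04 ± 0.049 on the log2 scale (edgeR adjusted p = 1.8e-48 and 1.2e-49), and dexamethasone alone raised them by 0.80 ± 0.038 and 0.66 ± 0.041 (adjusted p = 1.0e-23 and 2.1e-19). Added to LPS, dexamethasone raised C1qb by 1.30 ± 0.041 and C1qc by 1.37 ± 0.049 (adjusted p = 1.9e-31 and 1.7e-29). The summed B cell markers fell with LPS as the C1q genes did, from 103 CPM (libraries 99.2 to 107) in untreated WT to 0.538 CPM (0.170 to 0.771), and went against them with dexamethasone, at 53.7 CPM (52.4 to 55.0). With both agents the sum was 3.41 CPM (2.83 to 3.77). Of the 6 markers 3 were at 0 in untreated WT, Ms4a1 and Pax5 among them, and the sum was made of Ighm at 101, Cd79b at 1.78 and Cd79a at 0.102 CPM, with Cd79b at 0.132 CPM with LPS. Their part in the C1q result was not tested.

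Without replicate 3 of WT with LPS, the LPS effect was -4.35 ± 0.066 for C1qa, -3.36 ± 0.042 for C1qb and -4.10 ± 0.046 for C1qc, and dexamethasone added to LPS gave 2.39 ± 0.072, 1.35 ± 0.040 and 1.44 ± 0.046, all called. The KO-labelled libraries showed the same directions for C1q. C1qa was at 222, 221, 221 and 222 CPM untreated, 445, 453, 448 and 447 CPM with dexamethasone, 17.6, 13.7, 16.8 and 17.1 CPM with LPS and 32.3, 28.4, 35.6 and 32.97 CPM with both. C1qb was at 1357 ± 15.6, then 2342 ± 19.3, 170.3 ± 8.60 and 245 ± 15.2 CPM in that order, and C1qc at 853 ± 20.9, 1342 ± 12.7, 65.6 ± 2.80 and 90.9 ± 6.74 CPM. Again the 4 treatments did not overlap for any chain, with the share of all genes so separated not counted. LPS changed C1qa by -3.77 ± 0.064, C1qb by -2.99 ± 0.042 and C1qc by -3.70 ± 0.048, and dexamethasone added to LPS raised them by 0.98 ± 0.074, 0.52 ± 0.041 and 0.47 ± 0.049, each called (edgeR adjusted p from 1.8e-48 to 2.6e-11). All 3 chains ranked the groups alike, from WT with dexamethasone through KO-labelled with dexamethasone, WT untreated, KO-labelled untreated, WT with both, KO-labelled with both and KO-labelled with LPS to WT with LPS. Highest and lowest group means differed 39.4-fold for C1qa, 17.4-fold for C1qb and 26.01-fold for C1qc. Neighbours in this order overlapped between the LPS groups for C1qa, and between the genotype labels of the dexamethasone and of the untreated groups for C1qc, and nowhere for C1qb.

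**Figure D1:**
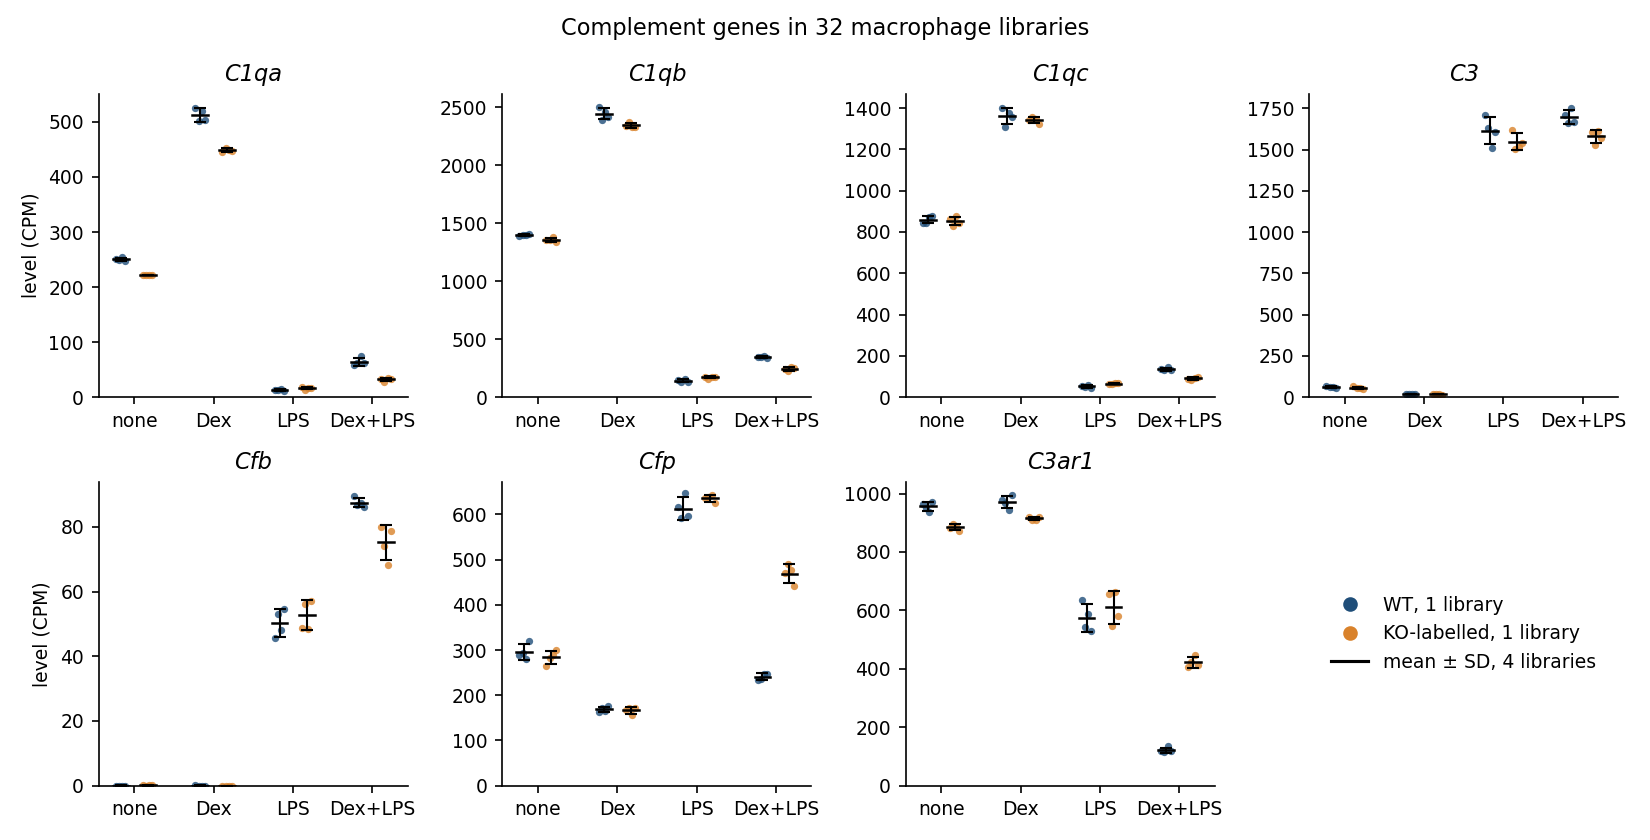
Level of each of the 7 complement genes in CPM (vertical axis, from 0, with its own scale for each gene) by treatment (horizontal axis), with 1 point per library in WT and KO-labelled macrophages and bars for the mean ± SD of 4 libraries. The C1q genes fall with LPS, C3 and Cfb rise with it, and Cfp and C3ar1 separate the genotype labels with both agents, at 241 against 469.2 CPM and 121 against 423 CPM.

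The 3 chains did not move in a fixed ratio. Per kb of exon, C1qa stood at 0.187 ± 0.0032 of C1qb in untreated WT libraries, 0.220 ± 0.0017 with dexamethasone, 0.0970 ± 0.0081 with LPS and 0.195 ± 0.018 with both (SD, n = 4). In KO-labelled libraries the C1qa to C1qb ratio was 0.171 ± 0.0023 untreated, 0.200 ± 0.0011 with dexamethasone, between 0.0907 and 0.107 in the LPS libraries and 0.138 ± 0.0055 with both. The A chain thus lost more than the B chain with LPS, and with both agents its ratio in WT (0.177 to 0.219) spanned the untreated range while that of the KO-labelled libraries (0.132 to 0.144) lay below it. C1qc per kb was 0.346 ± 0.0057 of C1qb in untreated WT libraries and 0.211 ± 0.011 with LPS, and unlike C1qa it stayed at 0.222 ± 0.0072 with both. These ratios of transcript levels were described by their ranges and not tested.

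**Figure D2:**
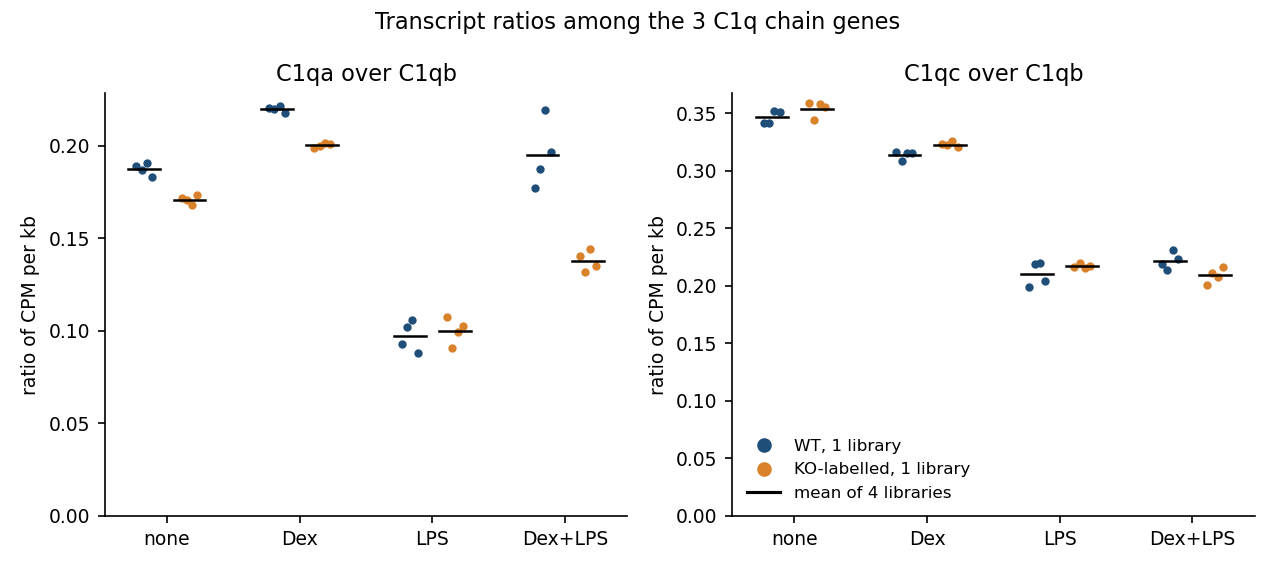
Ratio of C1qa to C1qb (left) and of C1qc to C1qb (right), each in CPM per kb of exon on an axis from 0, by treatment, with 1 point per library and a line for the mean of 4. The C1qa ratio falls with LPS and stands apart between the genotype labels with both agents (0.195 in WT, 0.138 in KO-labelled libraries), whereas the C1qc ratio stays low in all LPS groups.

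C3, the protein on which all complement pathways converge, went the other way. It was at 67.2, 59.8, 63.4 and 53.2 CPM in untreated WT libraries, 20.1, 16.9, 18.6 and 19.9 CPM with dexamethasone, 1708, 1629, 1510.2 and 1609.7 CPM with LPS and 1712, 1664, 1753 and 1665 CPM with both agents. LPS libraries lay above all libraries without LPS, and the 2 LPS groups overlapped. LPS raised C3 26.5-fold in WT, 4.73 ± 0.060 (edgeR adjusted p = 6.5e-49), and dexamethasone alone changed it by -1.70 ± 0.070 (edgeR adjusted p = 2.4e-26). Under LPS the change with dexamethasone was not called, at 0.073 ± 0.049 (edgeR adjusted p = 0.180), although without scaling factors it was called as a rise (0.17 ± 0.049, adjusted p = 0.00211). In KO-labelled libraries C3 was at 56.4 ± 7.25, 18.4 ± 1.78, 1546 ± 51.5 and 1581 ± 39.8 CPM in the order untreated, dexamethasone, LPS and both. There LPS raised C3 by 4.78 ± 0.060 (edgeR adjusted p = 4.0e-49), dexamethasone alone changed it by -1.61 ± 0.070 (edgeR adjusted p = 2.4e-25), and dexamethasone under LPS gave 0.032 ± 0.049 (edgeR adjusted p = 0.653). The order of groups for C3 fell into 3 steps, the 4 LPS groups, the untreated groups and the dexamethasone groups, and within each step neighbours overlapped. Fibroblast markers also rose with LPS, from 0.865 CPM (libraries 0.601 to 1.28) to 18.2 CPM (16.3 to 20.2) in WT. In that group Pdgfrb was at 14.9, Dcn at 2.29, Lum at 0.771, Col1a1 at 0.163 and Col1a2 at 0.0259 CPM, with Col3a1 and Pdgfra at 0, whereas untreated WT had Pdgfrb at 0.646 and Col1a1 at 0.141 CPM and Dcn and Lum at 0. Their part in the C3 result was not tested.

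Cfb, which encodes the protease of the alternative pathway convertase, was near absent without LPS. It had 2 counts over the 4 untreated WT libraries, 2 over those with dexamethasone, 10 over the untreated KO-labelled libraries and 0 over those with dexamethasone, against 3786 to 7033 counts in each group with LPS. With LPS it was at 45.5, 53.1, 48.0 and 54.6 CPM in WT and 48.7, 56.2, 48.5 and 57.2 CPM in KO-labelled libraries, which overlapped. With both agents it was at 89.4, 86.9, 87.4 and 86.2 and 80.0, 74.1, 68.1 and 78.8 CPM, above all libraries with LPS alone. The ratio of scaled counts for LPS over control was 1958 in WT, with an exact binomial interval (95%, counting error alone) from 542 to 16169.6. From the 10 untreated counts in KO-labelled libraries the log2 rise was 8.84 (edgeR adjusted p = 2.9e-40), and 8.63 to 9.20 when each library was left out. No SE is given for it, since 10 counts are too few for one taken from F. Given with LPS, dexamethasone raised Cfb by 0.80 ± 0.061 (edgeR adjusted p = 5.0e-16) in WT and by 0.52 ± 0.061 (edgeR adjusted p = 1.4e-09) in KO-labelled libraries. Without replicate 3 of WT with LPS the WT value was 0.78 ± 0.063, and for C3 it was 0.043 ± 0.046, not called, with an LPS effect on C3 of 4.76 ± 0.054. Against dexamethasone alone, both agents gave a ratio of 3816 in WT (1056 to 31513) and an at least 2140.1-fold higher level in KO-labelled libraries, with the floor for a count of 0 set at 3 counts over the group. The drop from 10 to 0 counts with dexamethasone in KO-labelled libraries was called (edgeR adjusted p = 0.00535). Cfb passed the filter on low counts through the groups with LPS, and a fit on these 2 groups alone did not test it. With the floor of 3 counts the drop is 3.09-fold, a value that leaves out counting error. Differences of effects that rest on these 0 to 10 counts are not given for Cfb.

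Cfp, which encodes properdin, the stabiliser of the convertase, rose with LPS and fell with dexamethasone. In WT libraries it was at 289, 294, 281 and 321 CPM untreated, 162, 171, 165 and 176 CPM with dexamethasone, 616, 592, 647 and 596 CPM with LPS and 234, 236, 247 and 248 CPM with both agents. In KO-labelled libraries the 4 groups read 264, 282, 289 and 299 CPM, 166, 172, 156 and 171 CPM, 636, 637, 642 and 625 CPM and 469.8, 489, 477 and 441 CPM. With both agents WT libraries fell below all untreated ones, while KO-labelled libraries stayed above them. LPS raised Cfp by 1.05 ± 0.039 (edgeR adjusted p = 8.7e-29) in WT and 1.16 ± 0.039 (edgeR adjusted p = 1.1e-30) in KO-labelled libraries, and dexamethasone alone changed it by -0.81 ± 0.040 and -0.77 ± 0.040 (edgeR adjusted p = 5.7e-23 and 4.9e-22). Under LPS, dexamethasone lowered Cfp 2.54-fold in WT, -1.35 ± 0.040 (edgeR adjusted p = 9.3e-33), and 1.35-fold in KO-labelled libraries, -0.44 ± 0.039 (edgeR adjusted p = 2.3e-13). With replicate 3 of WT with LPS left out, these were 1.02 ± 0.038 for LPS and -1.32 ± 0.038 for dexamethasone under LPS in WT, both called. The range over groups was 3.82-fold, the narrowest of the 7 genes. Its means ran from KO-labelled and WT with LPS through KO-labelled with both, WT and KO-labelled untreated and WT with both to WT and KO-labelled with dexamethasone, and the labels overlapped in the LPS, the untreated and the dexamethasone groups. Neutrophil markers summed to 0.296 CPM (libraries 0.154 to 0.481) in untreated WT and 4.63 CPM (3.503 to 5.46) with LPS, where S100a8 was at 2.49 and Camp at 2.09 CPM and 4 of the 8 markers were at 0, S100a9, Mpo, Elane and Ltf. With both agents, where Cfp was lower, the sum was 12.8 CPM (11.2 to 13.8). Their part in the Cfp result was not tested.

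C3ar1, the receptor gene, fell most where both agents were given. It read 964, 949.5, 938 and 973 CPM in untreated WT libraries, 978, 966, 945 and 995 CPM with dexamethasone, 636, 543, 588 and 529 CPM with LPS and 119, 114, 134 and 119 CPM with both. In KO-labelled libraries it read 884, 897, 888 and 873, then 919, 911, 911 and 920.1, 655, 546, 662 and 582 and 407, 424, 449 and 412 CPM in the same order. The WT libraries with both agents lay far below every other library, and untreated and dexamethasone libraries of WT overlapped. LPS changed C3ar1 by -0.74 ± 0.046 (edgeR adjusted p = 6.1e-20) in WT and by -0.53 ± 0.046 (edgeR adjusted p = 5.9e-15) in KO-labelled libraries. Dexamethasone alone changed it by 0.023 ± 0.045 (edgeR adjusted p = 0.716) in WT and 0.048 ± 0.045 (edgeR adjusted p = 0.405) in KO-labelled libraries, neither called, although the KO-labelled ranges did not overlap. In a fit on the compared KO-labelled groups alone the change was called as a rise, 0.078 ± 0.023 (edgeR adjusted p = 0.00409). Under LPS dexamethasone lowered it 4.73-fold in WT, -2.24 ± 0.049 (edgeR adjusted p = 3.6e-38), and 1.45-fold in KO-labelled libraries, -0.53 ± 0.046 (edgeR adjusted p = 1.1e-13). Without replicate 3 of WT with LPS the WT values were -0.74 ± 0.047 for LPS and -2.23 ± 0.049 for dexamethasone under LPS, both called. In order, C3ar1 ran from WT with dexamethasone and untreated WT, which overlapped, through KO-labelled with dexamethasone and untreated to KO-labelled and WT with LPS, which overlapped, and then to KO-labelled and WT with both. The group of WT libraries with both agents had the lowest mean of the receptor gene. Its mean of C3, the precursor of the ligand, was the highest, but these C3 levels overlapped those of WT with LPS. The C3 difference between those 2 groups, 0.073 ± 0.049, was not called (edgeR adjusted p = 0.180).

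Each treatment changed 5 or more of the 7 genes. LPS called 3 higher (37.4% of all genes) and 4 lower (38.3%) in WT, and 3 higher (36.8%) and 4 lower (39.3%) in KO-labelled libraries. The median over the 7 was -0.74 in WT against -0.020 over all genes. Dexamethasone alone called 3 higher (21.2% of all genes) and 2 lower (28.2%) in WT, and 3 higher (20.9%) and 3 lower (27.6%) in KO-labelled libraries. The 3 lower there include Cfb, which went from 10 to 0 counts. With the compared groups alone it was 4 higher, with C3ar1 added, and 2 lower, since Cfb was not tested. For dexamethasone added to LPS each label had 4 higher (34.6% of all genes in WT, 20.8% in KO-labelled libraries) and 2 lower (34.5% and 17.3%). LPS added to dexamethasone called all 7 in both labels, 3 higher (35.5% of all genes in WT, 38.5% in KO-labelled libraries) and 4 lower (37.8% and 37.4%). In that comparison C1qa changed by -3.00 ± 0.053 in WT and -3.80 ± 0.057 in KO-labelled libraries, C3 rose by 6.50 ± 0.068 and 6.43 ± 0.068, Cfp rose by 0.52 ± 0.041 and 1.49 ± 0.041, and C3ar1 changed by -3.00 ± 0.050 and -1.11 ± 0.046.

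**Figure D3:**
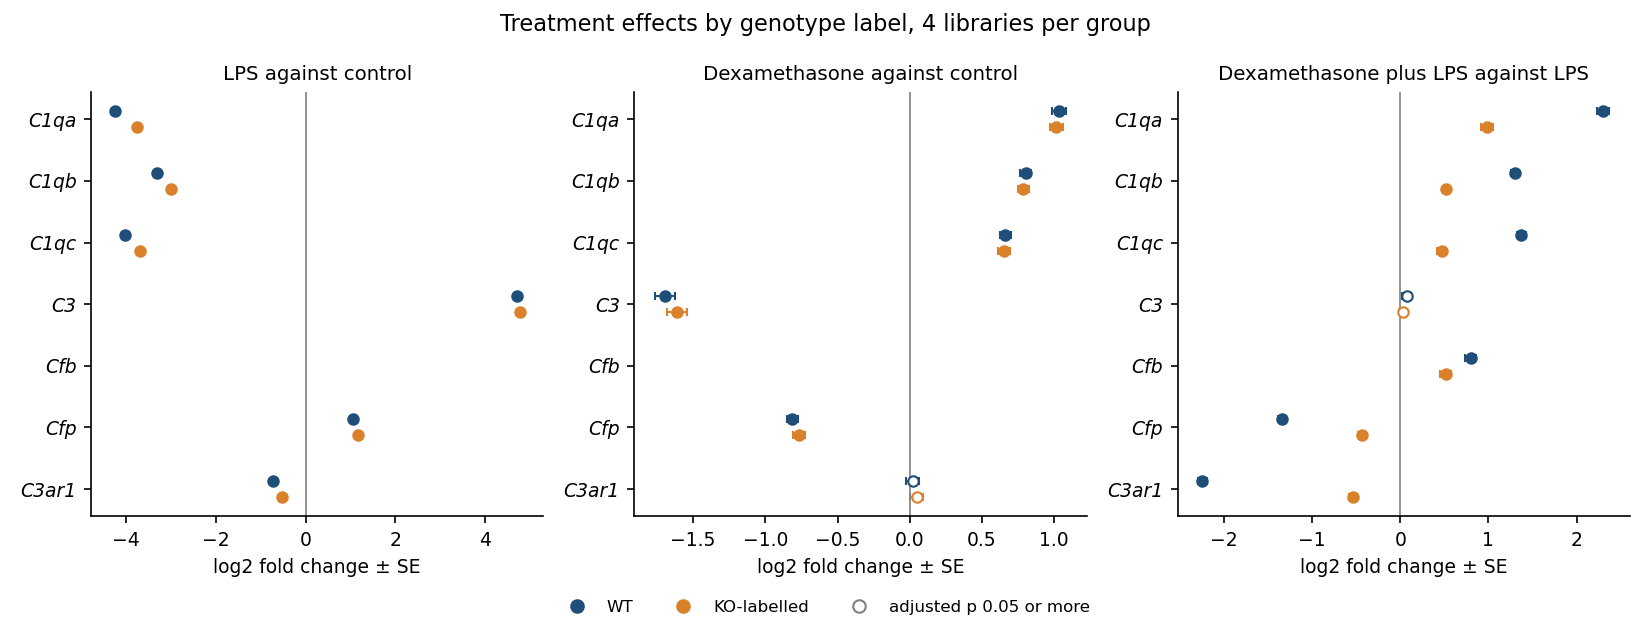
Log2 fold change ± SE (horizontal axis) of each complement gene for LPS and for dexamethasone, each against no treatment, and for both agents against LPS, in WT and KO-labelled libraries with 4 libraries per group. Open points have an adjusted p of 0.05 or more, and Cfb is drawn in the right panel alone since it had 0 to 10 counts per group without LPS. The single-agent effects differ between labels by at most 0.49 (C1qa with LPS), and those of dexamethasone under LPS are larger in WT for the 6 genes with a called change, as for C1qa at 2.30 against 0.98.

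Whether dexamethasone acted differently with and without LPS was tested as an interaction. In WT libraries the interaction was called for 6 genes, 4 positive and 2 negative, and for 60.4% of all genes. The dexamethasone effect was more positive under LPS for C1qa, 1.27 ± 0.087 (edgeR adjusted p = 7.2e-18), for C1qb, 0.50 ± 0.056, for C1qc, 0.71 ± 0.064, and for C3, 1.77 ± 0.085. It was more negative under LPS for Cfp, -0.53 ± 0.056, and for C3ar1, -2.27 ± 0.067 (edgeR adjusted p = 2.9e-32). These 6 were called as well without replicate 3 of WT with LPS, from -2.26 ± 0.065 for C3ar1 to 1.74 ± 0.081 for C3. For C3 the positive value stands between a called fall without LPS and no called change under LPS, and for the C1q genes between a smaller and a larger rise. In KO-labelled libraries it was called for 6, 3 positive and 3 negative, and for 41.8% of all genes, and 1 of the positive ones was Cfb, whose value is not given. C1qa showed no called interaction there, -0.033 ± 0.089 (edgeR adjusted p = 0.811), and C1qb and C1qc had smaller effects under LPS, -0.26 ± 0.056 (edgeR adjusted p = 1.2e-04) and -0.18 ± 0.064 (edgeR adjusted p = 0.0159). Without replicate 2 of the KO-labelled libraries with both agents, that of C1qc was not called (-0.15 ± 0.065, adjusted p = 0.0614), nor without replicate 1 (-0.16 ± 0.066, adjusted p = 0.0512). C3 again gave a positive interaction, 1.64 ± 0.086, Cfp now also a positive one, 0.33 ± 0.056, and C3ar1 a negative one, -0.58 ± 0.064.

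Between the genotype labels, C1qa alone was called without LPS in the fit of all 8 groups, and only with dexamethasone. Untreated, none of the 7 was called by edgeR's quasi-likelihood test, with 0.541% of all genes called. C1qa and C3ar1 had an unadjusted p under 0.05, a threshold at which the share of all genes was not counted. C1qa was at 221 to 222 CPM in KO-labelled and 247 to 254 CPM in WT libraries, which did not overlap, a difference of -0.18 ± 0.048 (edgeR adjusted p = 0.0888), and DESeq2 called it (adjusted p = 0.0423, with 6.8e-04 to 0.194 over the alternatives). C3ar1 differed by -0.11 ± 0.045 (edgeR adjusted p = 0.425). In fits on the compared groups alone it was called lower, untreated (-0.11 ± 0.025, edgeR adjusted p = 0.0166) and with dexamethasone (-0.088 ± 0.020, edgeR adjusted p = 0.00803). The ranges of C1qb and C3ar1 were also apart, both untreated and with dexamethasone, and the share of all genes apart was not counted. Untreated, Cfb had 10 counts against 2, a ratio of 4.25 with an exact interval from 0.906 to 39.9. With dexamethasone alone 1 gene was called, C1qa, lower in KO-labelled libraries with -0.19 ± 0.047 (edgeR adjusted p = 0.0235), where 0.360% of all genes were called lower. That call was lost in 5 of 8 fits that left out 1 library, those without replicates 1, 3 or 4 of the KO-labelled or 1 or 3 of the WT libraries (adjusted p from 0.0632 to 0.0951), and on lane 3 libraries alone (-0.19 ± 0.049, adjusted p = 0.0605). A difference of the dexamethasone effect between labels was called for 0 of the 7 genes by edgeR, and for 0 of all genes by edgeR and by DESeq2 alike. Of the 7, only Cfb, at 10 counts or fewer, had an unadjusted p under 0.05, while with no filter on low counts 6 genes of the whole table were called, none of them among the 7. The C1qa difference of effects was -0.018 ± 0.067 (edgeR adjusted p = 1.000).

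With LPS alone the 3 C1q genes were higher in KO-labelled libraries, 3 of 7 genes, with 4.66% of all genes called higher. C1qb lay at 158 to 178 CPM against 128 to 153 CPM in WT, and C1qc at 61.6 to 68.0 against 46.4 to 59.7 CPM, without overlap, while the C1qa ranges overlapped. The differences were 0.32 ± 0.086 (edgeR adjusted p = 0.00958) for C1qa, 0.28 ± 0.042 (edgeR adjusted p = 3.2e-06) for C1qb and 0.32 ± 0.051 (edgeR adjusted p = 9.2e-06) for C1qc. Since these groups came from different lanes, a lane term was fitted, which rests on 1 dexamethasone library of lane 2. With it C1qc was called (0.35 ± 0.086, adjusted p = 0.0369), and C1qa (0.32 ± 0.12, adjusted p = 0.262) and C1qb (0.29 ± 0.078, adjusted p = 0.0576) were not. C1qa was also not called without replicate 1 of the KO-labelled libraries (0.28 ± 0.093, adjusted p = 0.0535), without replicate 4 of WT (0.24 ± 0.087, adjusted p = 0.0714) or in a fit on these 2 groups alone (adjusted p = 0.0868). C3, Cfb, Cfp and C3ar1 were not called, with differences from -0.062 for C3 to 0.090 for C3ar1, and C3ar1 was called without replicate 2 of the KO-labelled libraries (0.14 ± 0.045, adjusted p = 0.0424) or replicate 1 of WT (0.14 ± 0.046, adjusted p = 0.0355). As a difference of the LPS effect between labels, C1qa gave 0.49 ± 0.099 (edgeR adjusted p = 9.5e-04), C1qb 0.32 ± 0.057 (edgeR adjusted p = 1.6e-04) and C1qc 0.34 ± 0.066 (edgeR adjusted p = 7.7e-04), where the difference was called for 3.72% of all genes. None of these 3 held with the lane term (0.50 ± 0.13, adjusted p = 0.0506 for C1qa, 0.33 ± 0.088, adjusted p = 0.0592 for C1qb and 0.36 ± 0.097, adjusted p = 0.0616 for C1qc), so lane and genotype cannot be told apart here. Without replicate 3 of WT the C1q differences between labels with LPS were 0.41 ± 0.089, 0.33 ± 0.040 and 0.39 ± 0.049, and those of the LPS effect 0.59 ± 0.098, 0.37 ± 0.052 and 0.40 ± 0.059, all called. C3ar1 had a difference of the LPS effect of 0.20 ± 0.064 (edgeR adjusted p = 0.0682), not called. It was called with DESeq2 (adjusted p = 0.0430), without the filter (0.00278), without scaling (0.0353), with the replicate block (0.0387) and without replicates 1 or 3 of WT or 2 or 4 of the KO-labelled libraries with LPS (0.00914 to 0.0469).

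With both agents 6 of the 7 genes differed between labels, 2 higher (28.5% of all genes) and 4 lower (27.9%) in KO-labelled libraries. C3ar1 was 3.48-fold higher in KO-labelled libraries, 1.80 ± 0.049 (edgeR adjusted p = 9.7e-34), and Cfp 1.95-fold higher, 0.96 ± 0.040 (edgeR adjusted p = 3.0e-26). C1qa was 1.99-fold lower, -0.996 ± 0.061 (edgeR adjusted p = 1.2e-19), and lower too were C1qb, -0.49 ± 0.040 (edgeR adjusted p = 3.4e-15), C1qc, -0.58 ± 0.046 (edgeR adjusted p = 1.6e-15), and Cfb, -0.22 ± 0.059 (edgeR adjusted p = 0.00154). For each of these genes the 4 libraries of one label lay wholly on one side of the other 4. The share of all genes that lie apart in this way was not counted, while 56.4% of all genes were called in either direction. C3 lay at 1529 to 1616 CPM in KO-labelled and 1664 to 1753 CPM in WT libraries, also apart, but its difference of -0.10 ± 0.049 (edgeR adjusted p = 0.0693) was not called. Over the alternatives it ran from -0.14 to 0.17, the positive end being the lane term, with an adjusted p of 0.00120 to 0.298. It was called lower by edgeR with RLE scaling (adjusted p = 0.0246), no scaling (0.0140), no filter (0.00817), the compared groups alone (0.00120) and the replicate block (0.0274). These groups too came from different lanes, and the lane term rests on 1 dexamethasone library of lane 2. With it C3ar1 read 1.79 ± 0.096 (edgeR adjusted p = 2.4e-20), Cfp 0.90 ± 0.077 (edgeR adjusted p = 1.8e-13) and C1qa -0.99 ± 0.099 (edgeR adjusted p = 1.7e-11). C1qb and C1qc were called as well, while Cfb could not be fitted. Over all genes the calls went from 8137 to 4834 with the term, and lane and genotype cannot be told apart here either.

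**Figure D4:**
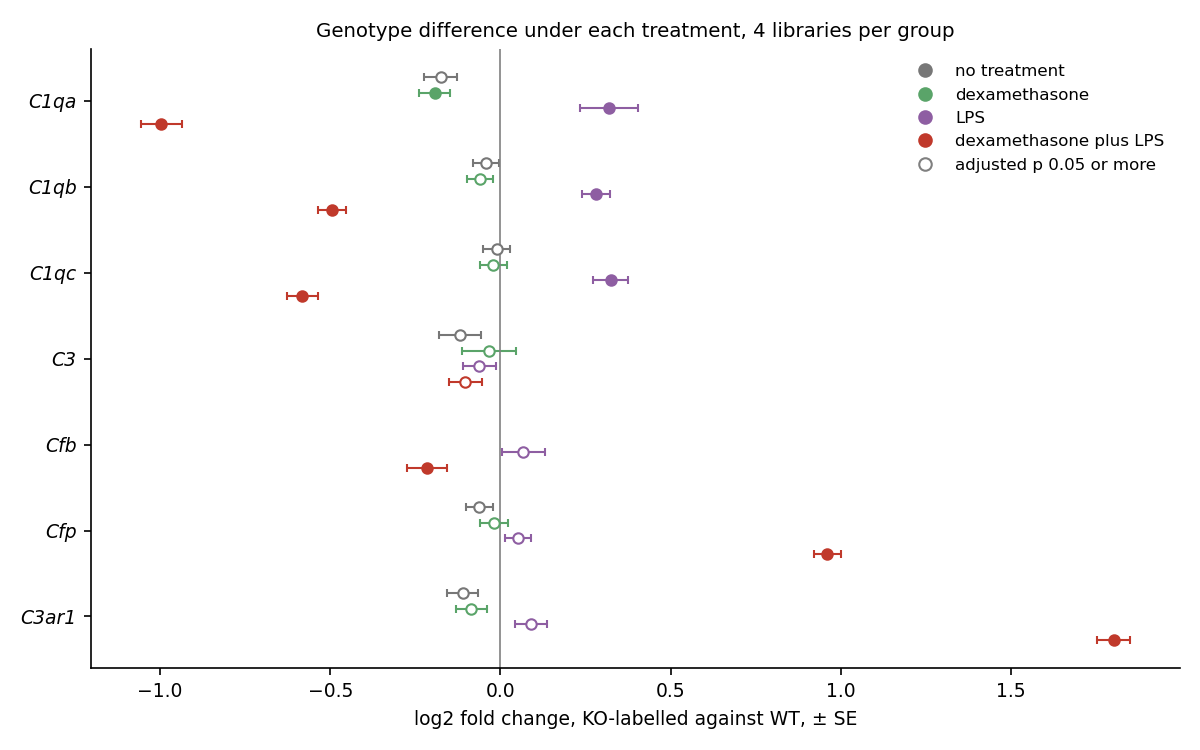
Log2 fold change ± SE (horizontal axis) of KO-labelled against WT libraries for each complement gene under each of the 4 treatments, with 4 libraries per group. Open points have an adjusted p of 0.05 or more, and Cfb is drawn only for the 2 treatments that include LPS. The points for both agents lie apart from the others for every gene but C3, from -0.996 for C1qa to 1.80 for C3ar1.

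The effect of dexamethasone under LPS was smaller in KO-labelled libraries for 6 of the 7 genes, 2 with a positive and 4 with a negative difference. Of all genes, 45.4% had a called difference in either direction, and the share with a smaller effect in KO-labelled libraries was not counted. Over all genes, dexamethasone added to LPS called 69.2% in WT and 38.1% in KO-labelled libraries. For C3ar1 the difference between labels was 1.71 ± 0.067 (edgeR adjusted p = 5.5e-27), for Cfp 0.91 ± 0.055 (edgeR adjusted p = 2.2e-19), for C1qa -1.32 ± 0.11 (edgeR adjusted p = 4.0e-15), for C1qb -0.78 ± 0.058 (edgeR adjusted p = 4.2e-16), for C1qc -0.91 ± 0.069 (edgeR adjusted p = 7.3e-16) and for Cfb -0.28 ± 0.086 (edgeR adjusted p = 0.00596). For C3, which had no called change with dexamethasone under LPS in either label, it was -0.041 ± 0.069 (edgeR adjusted p = 0.671). All 6 were called as well without replicate 3 of WT with LPS, at 1.70 ± 0.065 for C3ar1, 0.88 ± 0.052 for Cfp, -1.41 ± 0.10 for C1qa, -0.82 ± 0.053 for C1qb, -0.97 ± 0.062 for C1qc and -0.26 ± 0.086 for Cfb. Positive differences belong to the genes that dexamethasone lowered under LPS and negative ones to those it raised. Within each label both groups of this comparison came from 1 lane, lane 3 for WT and lane 2 for KO-labelled libraries. A lane term therefore cancels in this difference, so the fit with it could not move the values and is no check on lane. With the term the C3ar1 difference was 1.71 ± 0.069 and the C1qa difference -1.32 ± 0.11. A lane effect that depended on the treatment was not tested. The macrophage marker sum differed in the same groups, at 17015 to 18943 CPM with LPS and 29917 to 30884 CPM with both in WT, and 18244 to 19505 and 22081 to 22793 CPM in KO-labelled libraries. The list went both ways in WT: with both agents Lyz2 was at 20949 CPM against 7278 with LPS, Cd68 at 564 against 357 and Mertk at 113 against 6.65, while Csf1r was at 3041 against 3495, Adgre1 at 4009.5 against 4194, Cd14 at 1533 against 2386, Fcgr1 at 74.3 against 260.4 and Aif1 at 1.51 against 4.34 CPM. Their part in these differences was not tested.

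Among 51 other complement genes, 24 passed the filter on low counts. With LPS in WT, 8 of the 24 were called higher (37.4% of all genes), 10 lower (38.3%) and 6 neither. Cd93, which encodes a surface glycoprotein once described as a C1q receptor, fell from 828 ± 21.7 to 26.6 ± 5.11 CPM, -4.96 ± 0.065 (edgeR adjusted p = 3.2e-48). C5ar1, the C5a receptor gene, fell from 659.6 ± 6.21 to 137 ± 12.2 CPM, and Itgb2, the beta chain of complement receptors 3 and 4, rose from 614 ± 21.96 to 1644 ± 38.4 CPM. KO-labelled libraries with LPS had 10 higher (36.8% of all genes) and 10 lower (39.3%). Dexamethasone alone called 11 of the 24 higher (21.2% of all genes) and 1 lower (28.2%) in WT, and 12 higher (20.9%) and 1 lower (27.6%) in KO-labelled libraries. Fcna, which encodes a ficolin of the lectin pathway, rose from 16.9 ± 0.581 to 47.9 ± 3.03 CPM in WT, 1.504 ± 0.074 (edgeR adjusted p = 4.2e-23), and Cd93 to 1370.1 ± 13.7 CPM. The gene lower with dexamethasone was Itgax, the alpha chain of complement receptor 4, at 1.44 ± 0.525 against 5.29 ± 0.661 CPM.

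Added to LPS, dexamethasone called 12 of these 24 genes higher (34.6% of all genes) and 6 lower (34.5%) in WT, and 8 higher (20.8%) and 3 lower (17.3%) in KO-labelled libraries. In WT Cd93 rose to 139 ± 10.6 CPM, 2.39 ± 0.065 (edgeR adjusted p = 3.0e-34), and C5ar1 to 383 ± 8.58 CPM, 1.48 ± 0.043 (edgeR adjusted p = 4.3e-33). C1qbp, which encodes a mainly mitochondrial protein that binds C1q, rose from 30.8 ± 3.27 to 75.2 ± 0.780 CPM. Lrp1, a large endocytic receptor that can bind C1q with calreticulin, fell from 1861 ± 122 to 486 ± 14.4 CPM, -1.94 ± 0.070 (edgeR adjusted p = 3.6e-29). In KO-labelled libraries Lrp1 was at 1213 ± 59.1, Cd93 at 87.5 ± 7.35, C5ar1 at 205 ± 4.89 and C1qbp at 49.99 ± 0.930 CPM with both agents. The difference between labels of the dexamethasone effect under LPS was called for 5 genes with a positive and 9 with a negative sign, against 45.4% of all genes, led by Lrp1, 1.49 ± 0.096 (edgeR adjusted p = 1.7e-18), C5ar1, -0.89 ± 0.061 (edgeR adjusted p = 1.6e-17), Cd93, -1.31 ± 0.092 (edgeR adjusted p = 3.2e-17), and C1qbp, -0.67 ± 0.073 (edgeR adjusted p = 6.7e-11). The median over the 24 was -0.17, against 0.00040 over all genes. Without LPS a single other gene differed between labels, Colec12, a collectin scavenger receptor gene, at 28.6 ± 2.04 CPM in untreated KO-labelled and 38.5 ± 0.901 CPM in untreated WT libraries, -0.43 ± 0.067 (edgeR adjusted p = 1.0e-04).

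**Figure D5:**
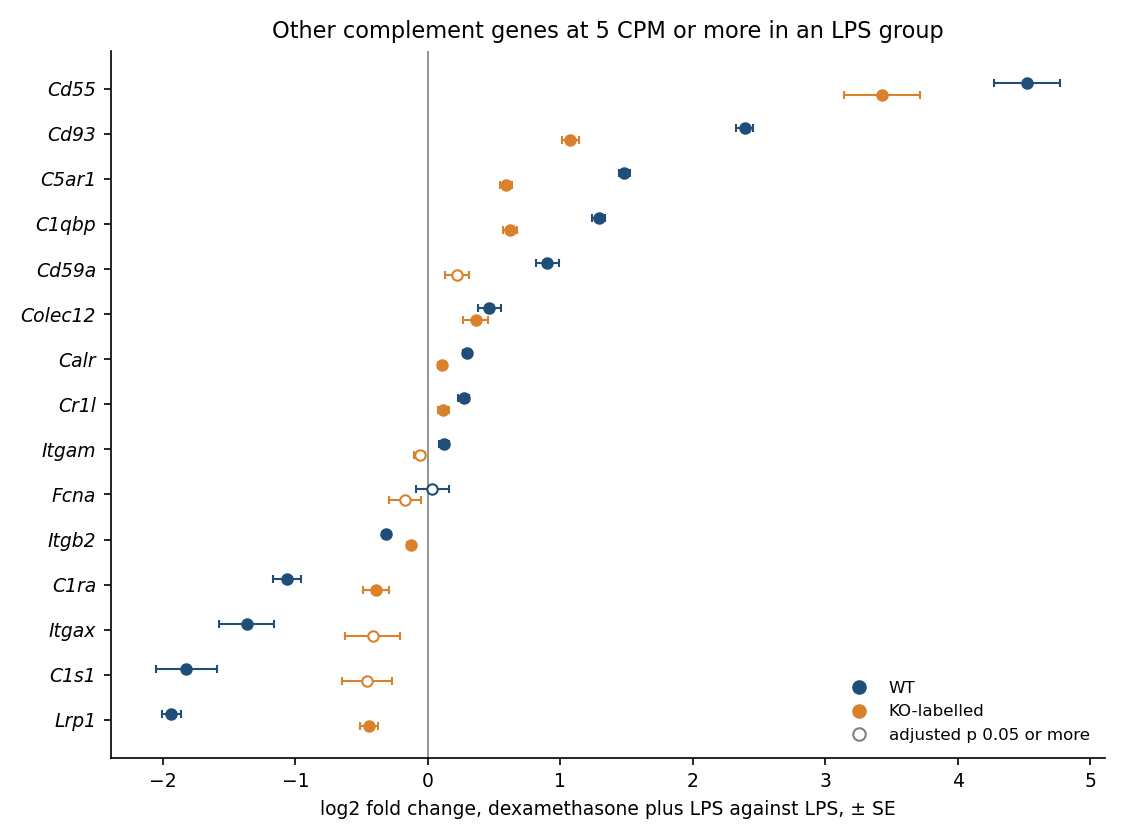
Log2 fold change ± SE (horizontal axis) for both agents against LPS of the 15 other complement genes whose mean reached 5 CPM in an LPS group, in WT and KO-labelled libraries with 4 libraries per group. Open points have an adjusted p of 0.05 or more. Cd93, C5ar1 and C1qbp lie further above 0 in WT, and Lrp1 further below it (-1.94 against -0.44).

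Among 9795 genes whose mean reached 5 CPM, those whose log2 level was most like each complement gene over the 32 libraries were described by Pearson's r. C1qb and C1qc named each other (r = 0.998). C1qb was also close to Rnase4 (r = 0.999) and Il6ra (r = 0.997), C1qc to Lamp1 (r = 0.997) and Sh2b3 (r = 0.996), and C1qa to Tspan14 (r = 0.996), Mpp1 (r = 0.995) and Il6ra (r = 0.995). Nearest to C3 were Vasp (r = 0.998), Il2rg (r = 0.997) and Pde4b (r = 0.996), and nearest to Cfb were Gpr18 (r = 0.996), Abcc5 (r = 0.996) and Irak3 (r = 0.996). Cfp was closest to Abca1 (r = 0.992), Mx2 (r = 0.989) and Nup50 (r = 0.989), and C3ar1 to Zfp740 (r = 0.987), Bcl2l11 (r = 0.986) and Arhgap22 (r = 0.986). The points share libraries and the same 8 groups, so these values mostly order genes by their group means.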

How the data were processed

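The deposited values are raw counts of read pairs per gene over exons, without regard to strand, made by the authors with featureCounts 2.0.0 on GENCODE vM32, per the file headers; STAR is named without a version and the builds GRCm38 and mm10 in the submitters' processing notes, which is not the build of vM32. Symbols from RefSeq matched 52029 of 56953 genes, and the 4924 others held 0.846% of counts. Genes were filtered with filterByExpr and scaled by TMM, and 8 group means were fitted with edgeR 4.0.16 (R 4.3.3, 24 residual degrees of freedom, biological coefficient of variation 4.36%). The fit was tested on simulated data. Lanes were read from the column names, and 1 untreated KO-labelled library was merged over runs. CPM and log2 levels were computed from the counts, the latter with a prior count of 2. All 48 within-group library pairs differed beyond sampling noise (chi-square per degree of freedom 2.01 to 16.7), so no library was taken for a copy of another. The complement genes and marker lists were chosen with earlier results of these data known. All 7 genes are named in each comparison; of 51 other complement genes up to 4 with the smallest adjusted p and at least 5 CPM, apart from values not reported here. Alternatives were DESeq2 1.42.0, RLE scaling, no scaling, no filter, an adjusted p under 0.01, the compared groups alone, a replicate block, lane 3 alone, a lane term and leaving out each library in turn.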

Additional observations from a re-analysis of the deposited data

Results flagged for a closer look

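Among 56 groups of 4 libraries, a single library stood apart in 2 by Dixon's ratio, which for normal values chance gives in about 1 of 20 groups. Cfb in KO-labelled libraries with dexamethasone had 0 counts throughout and gave no ratio. C1qb in untreated WT replicate 4 was at 1410.5 CPM against 1393 to 1395 in the others, and Cfb in WT replicate 1 with dexamethasone was at 0.101 CPM, where the others had 0. That library held 2 Cfb counts, and with 0 in all the others the ratio is 1 whatever the count.

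Effects that differed between the genotype labels in edgeR's test of the difference are listed next. For the LPS effect they were C1qa at 0.49, C1qb at 0.32 and C1qc at 0.34, all less negative in KO-labelled libraries. For the effect of dexamethasone under LPS they were C1qa at -1.32, C1qb at -0.78, C1qc at -0.91 and Cfb at -0.28, all raised less in KO-labelled libraries, and Cfp at 0.91 and C3ar1 at 1.71, both lowered less.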

How the results depend on the processing

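Of 2083 alternative values for the 7 genes, 2024 kept their direction and their side of the threshold, including every value of both agents against dexamethasone. The counts of genes called between untreated labels (0) became 1 with DESeq2, 1 without the filter, 2 with the compared groups alone (C1qa and C3ar1) and 1 with the replicate block. With dexamethasone the count of 1 became 0 at an adjusted p under 0.01, 0 on lane 3 alone, 0 with the lane term and 2 with the compared groups alone, where C3ar1 was added, and ranged from 0 to 1 when each library was left out. With LPS the count of 3 became 1 with the lane term and ranged from 2 to 4 without 1 library, and the 3 differences of the LPS effect became 0 with the lane term and 4, with C3ar1, with DESeq2, no filter, no scaling, the replicate block or without 1 of 4 LPS libraries. The count of 6 with both agents became 7 with RLE scaling, no scaling, no filter, the compared groups alone or the replicate block. The gene added was C3, and the lane term gave 5. Directions turned only where neither value was called. Without scaling, C1qc between untreated labels read 0.0021. With the lane term C3 read 0.031 between labels with dexamethasone, 0.21 with LPS and 0.17 with both agents, and Cfp read -0.0028 with LPS and -0.0047 for the difference of the dexamethasone effect. On lane 3 alone C3 between labels with dexamethasone read 0.031 and C1qc for the difference of the dexamethasone effect 0.0076. Leaving out each library moved C1qa in the KO-labelled interaction over -0.11 to 0.029, C1qc between untreated labels over -0.023 to 0.0041, C1qc in the difference of the dexamethasone effect over -0.029 to 0.0042, and C3 and Cfp between labels with dexamethasone over -0.089 to 0.031 and -0.036 to 0.00999. The causes were not tested.

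Deviations from group means of same-numbered libraries correlated at a median of 0.0076 (-0.029 to 0.060, 112 pairs). For libraries of other numbers the median was -0.0025 (-0.070 to 0.057, 336 pairs). Correlations this low do not show whether the libraries were paired. With the replicate block, C1qa between untreated labels (-0.18, adjusted p = 0.0414), C3 between labels with both agents (-0.10, adjusted p = 0.0274) and C3ar1 for the difference of the LPS effect (0.20, adjusted p = 0.0387) were called, and no other call changed. Without scaling, the share of higher calls among all genes fell from 49.4% to 34.1% for LPS in WT, 48.4% to 34.1% in KO-labelled libraries, and 48.4% to 35.4% and 50.8% to 35.9% for LPS added to dexamethasone, with a median over all genes of -0.28 for LPS in WT. Between labels with LPS the share went from 45.8% to 65.0%, and with RLE scaling from 55.8% to 63.5% for the difference of the LPS effect. Counts over all genes moved by over 1.5 times only between labels. They were 78 untreated (137 without the filter, 38 at an adjusted p under 0.01, 121 with the compared groups alone), 130 with dexamethasone (201, 62 and 401 likewise, 75 with the lane term, 82 on lane 3), 1468 with LPS (829 at the stricter threshold, 667 with the compared groups, 112 with the lane term), 8137 with both (4834 with the lane term), and 536 for the difference of the LPS effect (260, 314 and 113 in that order). The lane term could not be fitted for Cfb in 4 comparisons, whose libraries without LPS hold 0 to 10 counts per group.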
